A study of Homo sapiens with 18 samples.

Results

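The genes studied are 10 members of the BCL2 family, which sets whether a cell lives or dies through its mitochondria: MCL1, BCL2, BCL2L1, BCL2A1, BAX, BAK1, BCL2L11, PMAIP1, BBC3 and HRK. They were taken by gene symbol from the deposited expression tables, which list 26249 genes, and all 10 were found in every library. Messenger RNA was sequenced from its 3' end (QuantSeq) in 18 libraries from cells labelled XG1 and AMO1, both given as multiple myeloma lines. In each line 3 libraries came from cells in the solvent DMSO, 3 from cells in 100 nM YKL-5-124 and 3 from cells in 1000 nM YKL-5-124, all after 24 h. YKL-5-124 is an inhibitor of CDK7, a kinase of the general transcription machinery. Both lines were grown in RPMI medium with serum in multi-well plates, and no genetic change was named for either. The labels number the replicates without saying whether they were separate cultures, and the p-values below therefore reflect only how far these libraries spread, which may be technical.

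The family works by protein binding at the outer mitochondrial membrane. The survival proteins MCL1, BCL2, BCL-XL (gene BCL2L1) and BFL1 (gene BCL2A1) hold the pore-forming proteins BAX and BAK (gene BAK1) in check. The BH3-only proteins BIM (gene BCL2L11), NOXA (gene PMAIP1), PUMA (gene BBC3) and HRK bind the survival proteins and so free the pore formers. NOXA binds MCL1 above all and HRK binds BCL-XL, while BIM and PUMA bind every survival protein. Myeloma cells are known for their need of MCL1, whose mRNA and protein are both short-lived.

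Expression was deposited as FPKM, which scales fragments by transcript length and library size. The 3 BH3-only genes PMAIP1, BBC3 and HRK gave the 3 largest falls of the members in AMO1 at both doses, and the 250 bases before their start sites are shown for that reason, from RefSeq on GRCh38.p14. Each is written 5′ to 3′ on the gene's own strand. Capitals mark matches to any of 6 motifs searched on both strands: TGACGT (the core of the cyclic AMP response element), TGATGNAA (the composite element of CCAAT-enhancer and ATF proteins), GGGCGG (the GC box), CACGTG (an E-box), CCAAT and TATAAA. The GC box and the CCAAT box are common letters, held by 42.6% and 32% of 35116 windows of the same length, and the other 4 motifs are rarer.
PMAIP1 (chr18:59899746-59899995, plus strand): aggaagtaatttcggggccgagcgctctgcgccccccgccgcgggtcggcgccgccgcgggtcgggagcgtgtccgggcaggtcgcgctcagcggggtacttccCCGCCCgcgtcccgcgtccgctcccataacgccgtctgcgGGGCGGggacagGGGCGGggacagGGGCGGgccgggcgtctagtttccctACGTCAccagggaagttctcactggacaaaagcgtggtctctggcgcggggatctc
BBC3 (chr19:47232668-47232917, minus strand): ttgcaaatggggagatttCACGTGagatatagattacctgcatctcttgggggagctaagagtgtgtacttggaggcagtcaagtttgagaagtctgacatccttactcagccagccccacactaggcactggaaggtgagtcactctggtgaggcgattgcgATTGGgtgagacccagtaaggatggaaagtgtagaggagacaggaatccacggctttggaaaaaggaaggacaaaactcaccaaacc
HRK (chr12:116881442-116881691, minus strand): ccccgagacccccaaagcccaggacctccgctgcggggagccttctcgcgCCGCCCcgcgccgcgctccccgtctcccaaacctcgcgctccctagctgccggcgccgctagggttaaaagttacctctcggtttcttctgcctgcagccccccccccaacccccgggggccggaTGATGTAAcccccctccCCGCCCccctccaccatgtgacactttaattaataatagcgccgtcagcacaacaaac
The PMAIP1 window holds 4 GC boxes and a TGACGT match whose first base lies at −56 from the start site, a motif found in 7.1% of all windows. HRK has a TGATGNAA match at −75 (3.14% of all windows) and 2 GC boxes. BBC3 has an E-box at −232 (6.34% of all windows) and a CCAAT box at −87. The 3 windows share no single motif of the 6. RefSeq windows were found for 9 members, with 2 for BCL2L1, which makes 10. Among the windows not printed, BAX had 4 E-boxes, at −138, −93, −45 and −14, BCL2A1 had a TGATGNAA match at −63 and a TATAAA match at −70, the first BCL2L1 window had TATAAA matches at −208 and −125 (10.7% of all windows), and the BCL2 window had no match to any of the 6. A match is a run of letters and not a shown binding site.

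The line labels were checked against cell type markers before any comparison. In the AMO1 libraries with DMSO, 10 of 11 plasma cell markers were at 1 FPKM or above in every library, and their sum was 8363 to 9397 FPKM. In the libraries labelled XG1 with DMSO only 4 of the 11 were, and the sum was 91.7 to 145 FPKM, with IRF4, the plasma cell transcription factor, at 0.533 ± 0.310 FPKM against 77.5 ± 6.13 in AMO1 (SD, n = 3 each). The same libraries labelled XG1 carried all 14 erythroid markers at 1 FPKM or above, summing to 4920 to 5351 FPKM against 109 to 125 in AMO1, with HBG1, a fetal globin gene, at 1448 ± 113 FPKM and GATA1, the erythroid master regulator, at 30.9 ± 0.549. Within the erythroid list HBE1 was lower in XG1 than in AMO1 (log2 difference −0.65, adjusted p = 0.0031, limma). EPOR was not called (0.32, adjusted p = 0.20), and the rest of that list was higher in XG1. The markers therefore went against the label of these 9 libraries, which are called XG1 below by their label only. T and NK cell markers summed to 40.5 to 59.2 FPKM in XG1 and to 1.37 to 3.26 in AMO1, both in DMSO. Only 1 of these 7 was at 1 FPKM or above in every XG1 library with DMSO. Of this list CD7 was higher in XG1 (log2 difference 5.38), CD3E was lower (−0.87) and CD3G was not called (−0.22, adjusted p = 0.60, limma). Myeloid markers summed to 121 to 147 and to 0.712 to 1.504, with 3 of 7 at 1 FPKM or above in every XG1 library with DMSO. Of the stromal list only VIM was at 1 FPKM or above in every library with DMSO, in both lines. The part of cell type in any line difference was not tested.

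The total signal also differed between groups. Summed spike-in values were nearly equal, at 166717 to 187657 FPKM over all 18 libraries, so the deposited values appear to be rescaled to the spike-ins. Summed gene values were lower with the inhibitor in both lines, with no overlap with DMSO. In XG1 the group mean was 81.0% of that in DMSO at 100 nM and 73.3% at 1000 nM, and in AMO1 62.2% and 39.6%. AMO1 replicate 2 at 1000 nM had the lowest sum of all 18 libraries, 431965 FPKM. Each change is therefore given on the deposited scale and again on a relative scale, on which each library was divided by the median ratio of its genes to their geometric mean over the libraries of the fit. The labels give the same approximate number of cells for all libraries, and in bulk RNA fewer cells and less RNA per cell cannot be told apart. FPKM divides by transcript length, although 3' libraries do not sample by length, so levels are compared within a gene and not between genes. Tests used limma on log2(FPKM + 1) with p-values adjusted over all genes tested, and a gene was called at an adjusted p under 0.05.

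**Figure D1:**
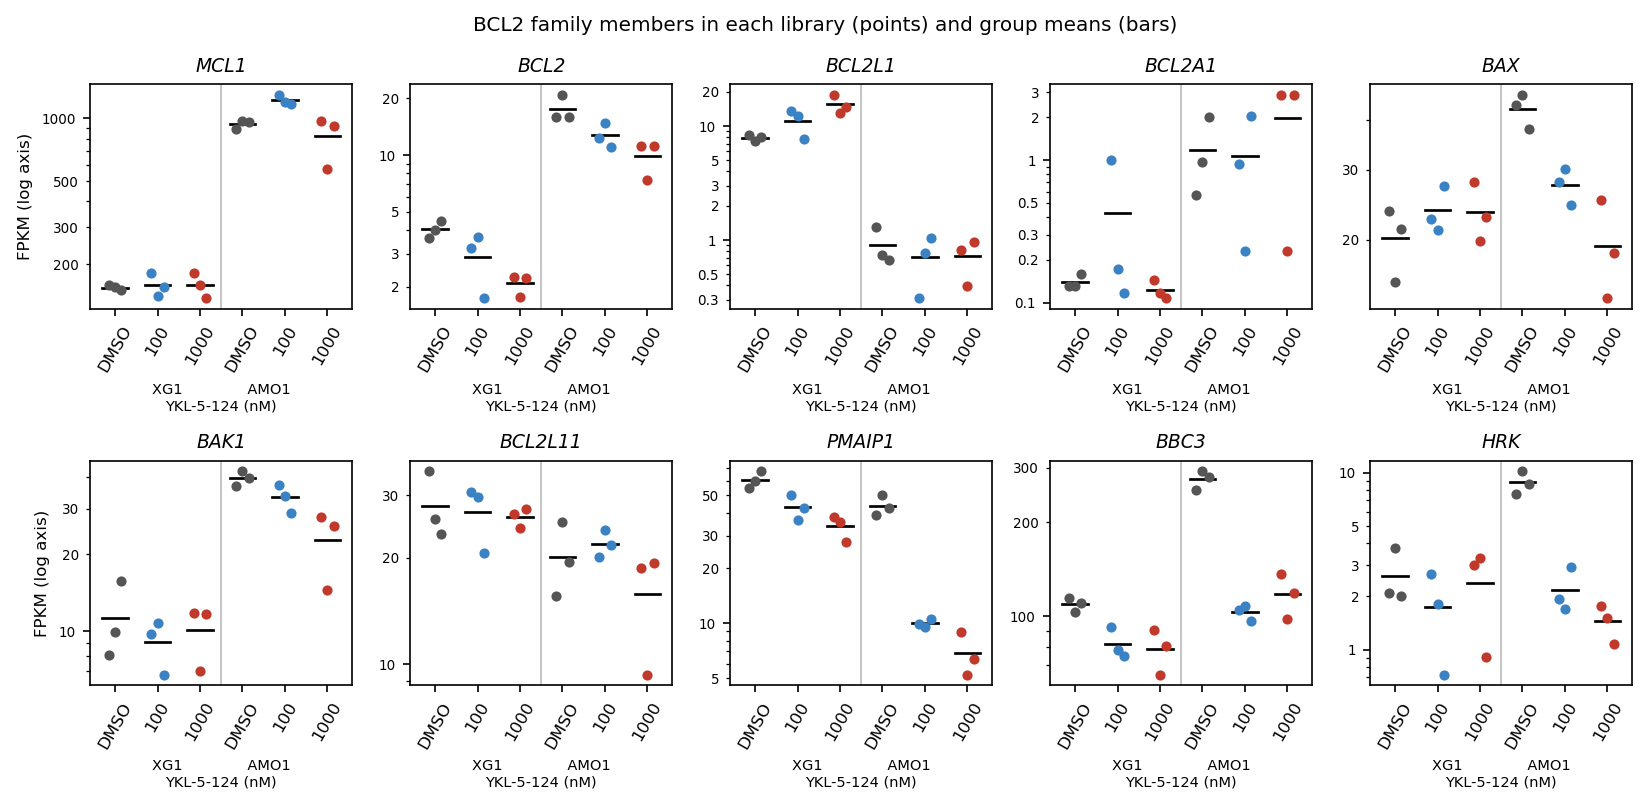
FPKM (log axis) of each of the 10 members in each of the 18 libraries, by line and dose of YKL-5-124; points are libraries and bars are means of 3. MCL1 spans 574 to 1300.1 FPKM in the AMO1 libraries and 137 to 182 in the XG1 libraries, and PMAIP1 in AMO1 goes from a mean of 43.9 FPKM in DMSO to 9.97 at 100 nM and 6.85 at 1000 nM.

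In DMSO, 8 of the 10 members differed between the lines, 6 lower in XG1 and 2 higher. Over all 12792 genes tested 19.8% were lower and 45% higher in XG1. The members' median log2 difference was −1.19, against 0.42 for all tested genes. On the relative scale 6 members were lower and 1 higher, against 28.3% and 37.4% of all genes, with medians of −1.49 and 0.13. All 10 members passed the filter on low values in this fit of 18 libraries. BCL2L1 did so through XG1 alone and BCL2A1 through AMO1 alone. The counts and medians above include both, and for these members they are a description only.

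Of the survival genes, MCL1 had 159, 155 and 149.6 FPKM in the XG1 libraries and 895, 969 and 958 FPKM in the AMO1 libraries. The groups lay far apart, and the AMO1 mean was 6.09 times the XG1 mean (log2 difference −2.60, SE 0.17, adjusted p = 6.2e-10, limma). BCL2, the founding survival gene, had 3.61, 4.02 and 4.48 FPKM in XG1 against 15.99, 20.9 and 16.04 in AMO1, again without overlap (log2 difference −1.88, SE 0.21, adjusted p = 5e-07). BCL2L1, which encodes BCL-XL, ran the other way. It had 8.30, 7.36 and 8.09 FPKM in XG1 and 1.31, 0.734 and 0.663 in AMO1, where it sat near the 1 FPKM filter (log2 difference 2.24, SE 0.23, adjusted p = 1.7e-07). It passed that filter through XG1, the line where it is high, so its call is a description only. BCL2A1, which encodes BFL1, was hardly present in XG1, with 0.131, 0.130 and 0.158 FPKM where the floor of those libraries was 0.117 to 0.140. In AMO1 it had 0.565, 0.965 and 2.003 FPKM, and its log2 difference of −0.88 (SE 0.39) missed the threshold (adjusted p = 0.060). It passed the filter through AMO1 alone.

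Both pore formers were lower in XG1. BAX had 23.6, 15.7 and 21.3 FPKM there and 43.8, 46.4 and 38.1 FPKM in AMO1 (log2 difference −1.06, SE 0.20, adjusted p = 2.0e-04). BAK1 had 8.10, 9.94 and 15.7 FPKM against 36.9, 42.1 and 39.6 (log2 difference −1.77, SE 0.26, adjusted p = 1.6e-05). Neither pore former had overlapping groups.

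The BH3-only genes did not share one direction. BBC3, which encodes PUMA, had 115, 103 and 110.0 FPKM in XG1 and 254, 292 and 279 in AMO1 (log2 difference −1.33, SE 0.15, adjusted p = 6.8e-07). HRK was also lower in XG1, with 2.10, 3.75 and 2.01 FPKM against 7.63, 10.2 and 8.64 (log2 difference −1.47, SE 0.31, adjusted p = 5.0e-04). PMAIP1, which encodes NOXA, was the second member called higher in XG1, with 54.9, 59.6 and 67.6 FPKM against 39.1, 50.0 and 42.5. Its difference was small (log2 0.46, SE 0.18, adjusted p = 0.034), was lost on the relative scale (0.15, adjusted p = 0.35) and was lost when any of 4 single libraries was left out (adjusted p 0.063 to 0.12). BCL2L11, which encodes BIM, had 35.0, 25.6 and 23.4 FPKM in XG1 and 15.6, 25.2 and 19.4 in AMO1, which overlapped (log2 difference 0.47, 95% interval −0.05 to 0.98, adjusted p = 0.10).

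**Figure D2:**
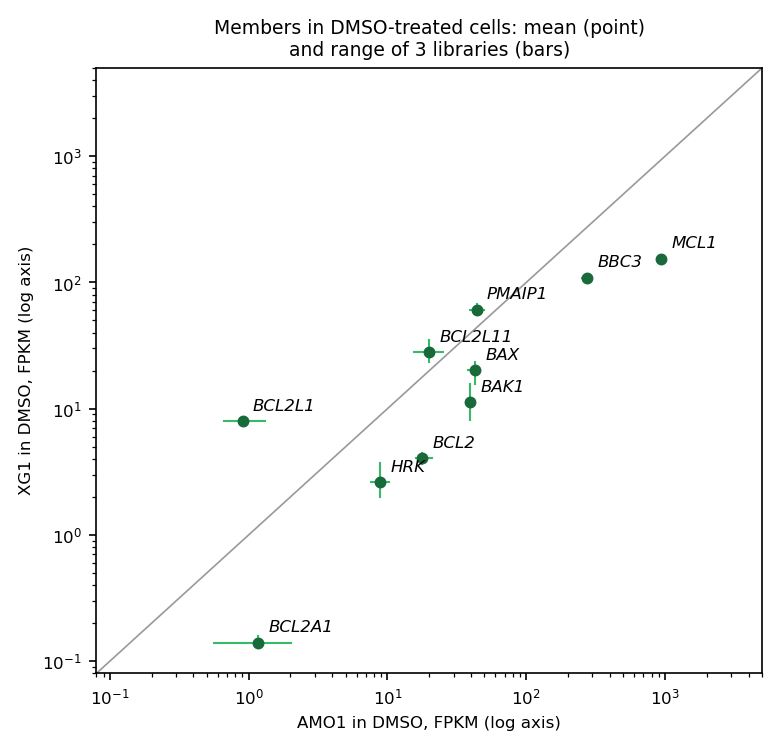
Mean FPKM (log axes) of each member in the 3 XG1 libraries against the 3 AMO1 libraries in DMSO; bars span the lowest and highest library and the line marks equal levels. MCL1, at 154 against 940.3 FPKM, lies far below the line of equality and BCL2L1, at 7.92 against 0.903 FPKM, far above it.

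In AMO1 members of all 3 roles were called lower at 1000 nM on the deposited scale, where most genes tested were lower too. The largest falls of the members were in the BH3-only genes PMAIP1, HRK and BBC3. On the relative scale only BH3-only members were called lower. At 100 nM 4 of the 9 members tested fell, PMAIP1, HRK, BBC3 and BAX, and none rose; over all 10503 genes tested 29.5% fell and 2.73% rose. At 1000 nM 6 of 9 fell, the same 4 with BAK1 and BCL2, and none rose, against 65.7% and 2.51% of all genes, so the members' share at this dose was near the background. No member was higher at an unadjusted p under 0.05 at either dose (limma). The members' median log2 change was −0.44 at 100 nM and −0.82 at 1000 nM, where the median of all tested genes was −0.35 and −0.77. On the relative scale the members split: 3 fell and 2 rose at 100 nM, against 17% and 14.2% of all genes, and 2 fell and 2 rose at 1000 nM, against 24% and 24.9%. In each line the 2 doses share their DMSO libraries. Without replicate 2 at 1000 nM, the library of lowest total, 6 members were still called at that dose. The plasma cell marker sum, 8363 to 9397 FPKM in DMSO, was 9968 to 10714 at 100 nM and 5256 to 8166 at 1000 nM. The higher sum at 100 nM came from SDC1, whose mean was 5067 FPKM in DMSO and 7801 at 100 nM, and POU2AF1 was also higher (155 and 217); JCHAIN (1924 and 1209), MZB1 (873 and 637), TNFRSF17 (443 and 286), XBP1 (214 and 159) and IRF4 (77.5 and 44.8) were lower at 100 nM. The part of these markers in the counts was not tested. BCL2L1 did not pass the filter in AMO1.

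PMAIP1 gave the largest change of the 9 members tested in AMO1. From its 39.1, 50.0 and 42.5 FPKM in DMSO it went to 9.88, 9.47 and 10.6 FPKM at 100 nM and to 8.93, 5.22 and 6.39 FPKM at 1000 nM. The 3 groups did not overlap, and the means at the 2 doses were 22.7% and 15.6% of that in DMSO. The log2 change was −2.03 (SE 0.21, adjusted p = 1.4e-05, limma) at 100 nM and −2.54 (SE 0.21, adjusted p = 3.4e-07) at 1000 nM. On the relative scale it was −1.60 (adjusted p = 1.9e-05) and −1.62 (adjusted p = 5.0e-06), so on that scale the doses gave nearly the same fall.

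HRK, the BH3-only gene that binds BCL-XL, had 1.92, 1.705 and 2.92 FPKM at 100 nM and 1.76, 1.5003 and 1.07 FPKM at 1000 nM, all below the 7.63 to 10.2 FPKM of DMSO. The treated means were 24.7% and 16.3% of the DMSO mean, while the 2 doses overlapped each other. The log2 changes were −1.64 (SE 0.20, adjusted p = 6.0e-05) and −2.01 (SE 0.20, adjusted p = 2.3e-06), and −1.25 and −1.26 on the relative scale (adjusted p = 0.0014 and 6.8e-04).

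BBC3 had 105, 108 and 96.7 FPKM at 100 nM and 137, 98.2 and 119 FPKM at 1000 nM, against 254 to 292 FPKM in DMSO. Here the higher dose did not give the lower level: the means were 37.5% and 42.9% of DMSO, and the treated groups overlapped. The deposited log2 changes were −1.40 (SE 0.19, adjusted p = 1.4e-04) and −1.22 (SE 0.19, adjusted p = 9.3e-05). On the relative scale the fall at 100 nM stayed, at −0.97 (adjusted p = 1.2e-04), but that at 1000 nM shrank to −0.25 and was no longer called (adjusted p = 0.068). The symbol BBC3 overlaps the microRNA genes MIR3190 and MIR3191, and no strand setting for the counting is recorded, so a share of its reads is uncertain.

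BCL2L11 stood apart from the other BH3-only genes among the members. It had 20.1, 23.9 and 21.6 FPKM at 100 nM and 18.7, 9.35 and 19.3 FPKM at 1000 nM, both overlapping the 15.6 to 25.2 FPKM of DMSO. No deposited change was called: 0.14 at 100 nM (95% interval −0.42 to 0.70) and −0.37 at 1000 nM (−0.93 to 0.20). Relative to the median gene it was higher at both doses, by 0.55 (adjusted p = 0.015) and 0.56 (adjusted p = 0.0087), so its direction at 1000 nM turned with the scale.

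Of the pore formers, BAX had 28.0, 30.1 and 24.4 FPKM at 100 nM and 25.2, 14.3 and 18.5 FPKM at 1000 nM, below every DMSO library. The log2 change was −0.62 (SE 0.22, adjusted p = 0.045) and −1.14 (SE 0.22, adjusted p = 4.6e-04). The call at 100 nM was lost whichever of the 6 libraries compared was left out (adjusted p 0.069 to 0.15). BAK1 had 37.2, 33.8 and 28.9 FPKM at 100 nM, which overlapped DMSO, and 28.0, 14.5 and 25.8 FPKM at 1000 nM, which did not. Its change of −0.25 at 100 nM was not called (adjusted p = 0.45), and it fell at 1000 nM by 0.82 on the log2 scale (SE 0.24, adjusted p = 0.0073). Neither pore former was called on the relative scale at either dose: BAX gave −0.19 at both doses, and BAK1 gave 0.18 and 0.13. RefSeq lists processed copies of BAK1 (BAK1P1 and BAK1P2), so its reads may be shared.

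Against DMSO, MCL1 was not called in AMO1 on the deposited scale and rose on the relative scale. It had 1300.1, 1197 and 1175 FPKM at 100 nM, all above the 895 to 969 FPKM of DMSO, and 977, 574 and 918 FPKM at 1000 nM, which overlapped DMSO, with replicate 2 low. The deposited changes were not called: 0.38 at 100 nM (95% interval −0.07 to 0.83, adjusted p = 0.18) and −0.23 at 1000 nM (−0.68 to 0.22, adjusted p = 0.34). Divided by their size factors, the same libraries read 678, 635 and 720.3 in DMSO, 1314, 1158 and 1115 at 100 nM and 1203, 1099 and 1123 at 1000 nM. On that scale the treated groups lay wholly above DMSO, and the log2 changes were 0.82 (SE 0.08, adjusted p = 9.1e-05) and 0.75 (SE 0.08, adjusted p = 5.9e-05), opposite in sign to the deposited change at 1000 nM.

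BCL2 had 12.3, 14.8 and 11.1 FPKM at 100 nM and 11.2, 7.36 and 11.1 FPKM at 1000 nM, all below the 3 DMSO libraries. Only the change at 1000 nM was called (−0.79, SE 0.21, adjusted p = 0.0050), and relative to the median gene it was 0.13 with no call (adjusted p = 0.38). BCL2A1 varied too widely to read, with 0.937, 0.229 and 2.02 FPKM at 100 nM and 2.86, 0.231 and 2.87 FPKM at 1000 nM. Its changes of −0.12 and 0.33 (SE 0.41 each) were not called (adjusted p = 0.84 and 0.49). BCL2L1 stayed at 0.309 to 1.04 FPKM in all 6 treated AMO1 libraries.

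**Figure D3:**
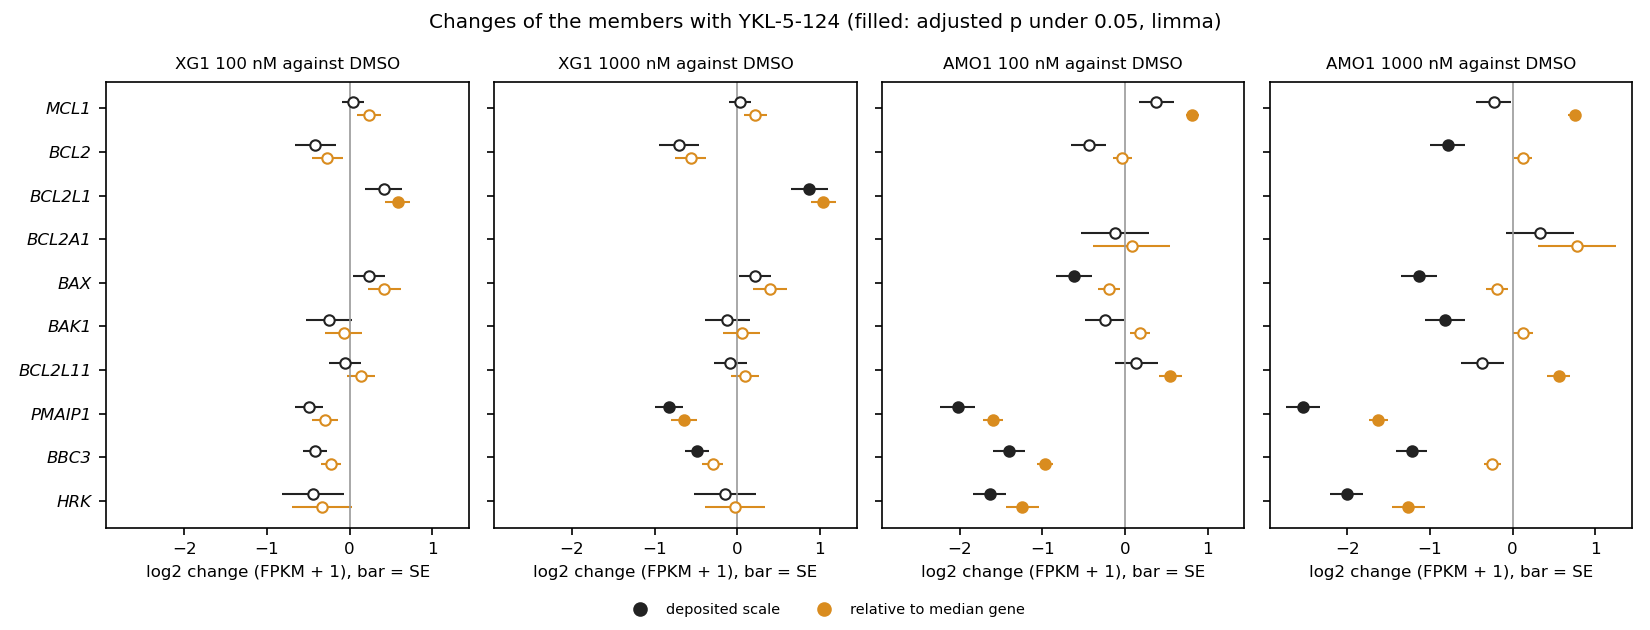
Log2 change of each member against DMSO in each line and dose, with its SE, on the deposited scale (black) and relative to the median gene (orange); filled points were called. In AMO1 PMAIP1 and HRK lie well to the left on both scales, while MCL1 and BCL2L11 are called, to the right, only on the relative scale.

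In the XG1 libraries changes were smaller and fewer. At 100 nM none of the 9 members tested was called on the deposited scale (limma), with 2, PMAIP1 and BBC3, lower at an unadjusted p under 0.05; over all 11810 genes tested 10% fell and 2.48% rose. At 1000 nM 2 of 9 fell, PMAIP1 and BBC3, and 1 rose, BCL2L1, against 13.2% and 3.69% of all genes. The members' median change was −0.25 and −0.12, and that of all tested genes −0.15 at both doses. On the relative scale BCL2L1 alone was called at 100 nM, against 7.3% of genes higher and 7.25% lower, and at 1000 nM BCL2L1 rose and PMAIP1 fell, against 9.56% and 10.2%. The erythroid marker sum of these libraries, 4920 to 5351 FPKM in DMSO, was 3147 to 4001 at 100 nM and 3502 to 3860 at 1000 nM, and its part in these changes was not tested. BCL2A1 did not pass the filter, and 8 of its 9 XG1 libraries lay between 0.107 and 0.172 FPKM, with 1 at 0.996.

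BCL2L1 rose in XG1. Its libraries had 13.6, 12.3 and 7.63 FPKM at 100 nM, which overlapped the 7.36 to 8.30 FPKM of DMSO, and 18.8, 13.1 and 14.5 FPKM at 1000 nM, which lay wholly above it. The mean at 1000 nM was 195% of that in DMSO (log2 change 0.87, SE 0.22, adjusted p = 0.022, limma). At 100 nM the change was 0.41 (SE 0.22, adjusted p = 0.25). Relative to the median gene both were called, at 0.59 (adjusted p = 0.032) and 1.04 (adjusted p = 0.0019). The deposited call at 1000 nM was lost when any 1 of 5 of the 6 libraries compared was left out, at an adjusted p of 0.056 to 0.080 and a log2 change of 0.73 to 0.91.

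PMAIP1 fell in XG1 as it did in AMO1, by less. It had 50.3, 36.6 and 42.4 FPKM at 100 nM and 38.0, 35.8 and 27.8 FPKM at 1000 nM, all below the 54.9 to 67.6 FPKM of DMSO. The mean at 1000 nM was 55.8% of DMSO (log2 change −0.83, SE 0.17, adjusted p = 0.0070), and −0.65 relative to the median gene (adjusted p = 0.020). At 100 nM the change of −0.49 (SE 0.17) missed the threshold (adjusted p = 0.080). BBC3 had 92.7, 77.8 and 74.6 FPKM at 100 nM and 90.2, 64.9 and 80.0 FPKM at 1000 nM, again below every DMSO library. Its change was −0.42 at 100 nM (adjusted p = 0.086) and −0.48 at 1000 nM (SE 0.15, adjusted p = 0.045), a call lost on the relative scale (−0.30, adjusted p = 0.13) and without any 1 of 5 libraries (adjusted p 0.075 to 0.18).

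The other XG1 members were not called. MCL1 had 182, 141 and 155 FPKM at 100 nM and 181, 158 and 137 FPKM at 1000 nM, spread around DMSO. Its log2 change was 0.04 (95% interval −0.26 to 0.34) and 0.03 (−0.27 to 0.34). BCL2 had 2.26, 1.77 and 2.24 FPKM at 1000 nM, below every DMSO library, at a change of −0.71 (SE 0.25, adjusted p = 0.073). BCL2L11, BAX, BAK1 and HRK gave changes of −0.08, 0.22, −0.12 and −0.15 at 1000 nM, with overlapping groups and intervals that held 0 in each case.

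The difference between the lines' responses was tested in 1 fit over the 18 libraries, as the XG1 change minus the AMO1 change, so a positive value means a smaller fall or a larger rise in XG1. At 100 nM 2 of 10 members differed, both positive, against 5.37% of genes positive and 0.86% negative. PMAIP1 gave 1.54 (SE 0.26, adjusted p = 0.0017, limma) and BBC3 0.99 (SE 0.21, adjusted p = 0.010), and both were called on the relative scale too (1.29 and 0.72, adjusted p = 7.6e-04 and 0.0093), where MCL1 was called negative (−0.61, adjusted p = 0.027), against 5.86% and 3.56% of genes. HRK, at 1.198 (95% interval 0.28 to 2.12), and BAX, at 0.85 (0.25 to 1.45), missed the adjusted threshold at this dose (adjusted p = 0.12 and 0.090).

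At 1000 nM 5 of 10 members differed, all positive, against 32.8% of genes positive and 1.5% negative. They were HRK (1.86, SE 0.44, adjusted p = 0.0042), PMAIP1 (1.70, SE 0.26, adjusted p = 1.9e-04), BAX (1.35, SE 0.28, adjusted p = 0.0021), BCL2L1 (1.01, SE 0.32, adjusted p = 0.023) and BBC3 (0.74, SE 0.21, adjusted p = 0.014). The median of all tested genes was 0.55, and on the relative scale only PMAIP1 (0.96, adjusted p = 0.0040) and HRK (1.27, adjusted p = 0.049) stayed positive calls, while MCL1 (−0.58, adjusted p = 0.023) and BCL2 (−0.70, adjusted p = 0.021) were called negative, against 8.44% and 8.58% of genes. BBC3 turned to −0.10 on that scale (adjusted p = 0.73). BCL2L1, which entered this fit through XG1 alone, is in the count of 5 as a description only. Its AMO1 means of 0.705 to 0.903 FPKM lie below the filter, where log2(FPKM + 1) understates any change, so its value largely repeats the XG1 change and is no measure of how the lines' responses differ. Its call was also lost without any 1 of 4 libraries (adjusted p 0.052 to 0.064).

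The 2 doses were also set against each other. In XG1 no member differed between 1000 nM and 100 nM, and none reached an unadjusted p under 0.05 (limma), against 0.322% of genes lower and 0.0677% higher. In AMO1 1 of 9 members, MCL1, was lower at the higher dose, against 23.4% of genes lower and 0.209% higher. Its change was −0.61 (SE 0.21, adjusted p = 0.0498) on the deposited scale and −0.06 relative to the median gene (adjusted p = 0.69). That call was lost without any 1 of the 100 nM libraries (adjusted p 0.11 to 0.13). PMAIP1, BAX and BAK1 gave −0.51, −0.52 and −0.57 with adjusted p of 0.079, 0.087 and 0.082. On the relative scale no member was called between doses in XG1 (limma; 1, BCL2L1, was higher at an unadjusted p under 0.05), against 0.169% of genes higher and 0.803% lower, and in AMO1 BBC3 alone was called, higher at 1000 nM (0.72, adjusted p = 0.0048), against 1.83% and 4.22%.

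Over the 6 groups the members kept different orders. MCL1 and BCL2 had every AMO1 group above every XG1 group, and BCL2L1 the reverse. For MCL1 the AMO1 groups ran from 1224 ± 66.9 FPKM at 100 nM to 940.3 ± 40.0 in DMSO and 823 ± 218 at 1000 nM (SD, n = 3), of which the last 2 overlapped, while the 3 XG1 groups, at 154 to 159.6 FPKM, overlapped throughout. PMAIP1 had XG1 in DMSO highest at 60.7 ± 6.46 FPKM, then AMO1 in DMSO at 43.9 ± 5.56, which overlapped XG1 at 100 nM at 43.1 ± 6.88, which in turn overlapped XG1 at 1000 nM at 33.9 ± 5.37. The treated AMO1 groups were lowest and lay clear of all of these. For BBC3 and HRK only AMO1 in DMSO stood clear of all other groups, at 275 ± 19.2 and 8.83 ± 1.31 FPKM. BAX in AMO1 at 1000 nM, 19.3 ± 5.54 FPKM, lay beside the XG1 group means of 20.2 to 23.7 FPKM and overlapped those groups.

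The wider pathway was followed through 5 gene lists chosen with earlier results of these data known. At most 3 called genes of smallest adjusted p are named per list, dose and line, so a gene named at a single dose may have changed at the other dose too. Among other BCL2 family genes in AMO1, 4 of 10 tested fell at 100 nM and 8 of 10 at 1000 nM, where 29.5% and 65.7% of all genes fell, and none rose. The median change at the higher dose was −1.25 against −0.77 for all genes. BCL2L12, a divergent relative, fell from 131 to 57.4 and 30.7 FPKM (log2 change −1.18 and −2.06, adjusted p = 9.4e-04 and 1.9e-06). BNIP1, a membrane-trafficking protein with a BH3-like stretch, fell from 27.6 to 14.02 and 7.99 FPKM (−0.93 and −1.70). BNIP2 fell at 100 nM from 35.7 to 19.0 FPKM (−0.90), with a mean of 13.4 FPKM at 1000 nM. BIK, a BH3-only gene, fell at 1000 nM from 118 to 37.9 FPKM (−1.64, adjusted p = 2.7e-05), with a mean of 76.5 FPKM at 100 nM. Relative to the median gene 5 of 10 fell at 1000 nM, against 24% of all genes, and 1 rose, BMF, another BH3-only gene (1.08), a gene named after its value was seen. In XG1 none of 11 was called at either dose (limma), with 1 higher and 4 lower at 100 nM and 1 higher and 0 lower at 1000 nM at an unadjusted p under 0.05. Of all genes tested 10% fell and 2.48% rose at 100 nM, and 13.2% fell and 3.69% rose at 1000 nM. With size factors applied 1 of 11 rose at 100 nM, BOK, and 3 rose at 1000 nM, BOK, BNIP3 and BNIP3L, against 7.3% and 9.56% of all genes; these 3 are named after their values were seen.

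Among the apoptosome genes, caspases and their inhibitors in AMO1, 4 of 15 (26.7%) fell at 100 nM and 10 of 15 (66.7%) at 1000 nM, near the 29.5% and 65.7% of all genes. BIRC5, survivin, an inhibitor that is also a cell division gene, fell from 74.6 to 16.6 and 6.13 FPKM (−2.10 and −3.43, adjusted p = 8.0e-06 and 1.9e-08). CASP2, an initiator caspase, fell from 30.9 to 14.8 and 8.28 FPKM (−0.9996 and −1.77), and CASP6, an executioner caspase, at 100 nM from 14.4 to 5.00 FPKM (−1.37). CYCS, cytochrome c, which leaves the mitochondrion through the BAX and BAK pore, fell at 1000 nM from 121 to 32.3 FPKM (−1.90, adjusted p = 6.4e-06). With size factors applied 4 of 15 fell and 4 rose at 1000 nM, against 24% and 24.9% of all genes; the 4 that rose, BIRC2, CASP8, CASP9 and XIAP, are named after their values were seen. In XG1, CYCS fell at 100 nM from 49.6 to 28.1 FPKM (−0.80, adjusted p = 0.011) as 1 of 16, and BIRC5 (86.7 to 37.1 FPKM, −1.22, adjusted p = 7.5e-04) and CYCS (to 32.7 FPKM, −0.58, adjusted p = 0.032) fell at 1000 nM as 2 of 16, against 10% and 13.2% of all genes lower at the 2 doses. With size factors applied CYCS fell and CASP2 rose at 100 nM, and BIRC5 fell and BIRC2 rose at 1000 nM, with the 2 that rose named after their values were seen.

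The mitochondrial pore partners, channels and carriers of the outer and inner membranes, gave 3 of 7 lower at 100 nM and 6 of 7 at 1000 nM in AMO1, against 29.5% and 65.7% of all genes. SLC25A5, an ADP/ATP carrier, fell from 962 to 463 and 329.97 FPKM (−1.05 and −1.61, adjusted p = 0.0058 and 7.0e-05), and VDAC3, an outer membrane channel, at 1000 nM from 85.5 to 33.3 FPKM (−1.38). Relative to the median gene 6 of 7 fell and 1, the carrier SLC25A4, named after its value was seen, rose at 1000 nM, against 24% and 24.9% of all genes. In XG1 SLC25A5 fell from 519.7 to 269 and 288 FPKM (−0.97 and −0.85, adjusted p = 0.0076 and 0.0099), 1 of 7 at 100 nM, and with VDAC3 (233 to 169 FPKM, −0.46) 2 of 7 at 1000 nM, against 10% and 13.2% of all genes. After division by size factors SLC25A5 alone fell at each dose, and SLC25A4 rose at 1000 nM.

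Of the regulators of MCL1 and BH3-only protein stability in AMO1, 1 of 12 fell at 100 nM, against 29.5% of all genes: USP13, a deubiquitinase that acts on MCL1 (−0.80, adjusted p = 0.0065). At 1000 nM 9 of 12 (75.0%) fell, against 65.7% of all genes, and relative to the median gene 2 fell, UBE2K and USP13, and 3 rose, CUL5, MARCH5 and USP9X, against 24% and 24.9% of all genes; the last 3 are named after their values were seen. HUWE1, a ubiquitin ligase for MCL1, gave −0.80 on the deposited scale (adjusted p = 0.0019) and 0.03 relative to the median gene. In XG1 1 of 12 fell at 100 nM, UBE2K, a ubiquitin-conjugating enzyme (−0.60, adjusted p = 0.019), and none at 1000 nM (limma), with 3 lower at an unadjusted p under 0.05. Of all genes tested 10% fell at 100 nM and 13.2% at 1000 nM. In the relative values UBE2K fell at 100 nM and USP9X rose at 1000 nM.

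Transcription factors known to act on BCL2 family genes included those of the stress response. In AMO1 6 of 13 (46.2%) fell at 100 nM and 11 of 13 (84.6%) at 1000 nM, against 29.5% and 65.7% of all genes. ATF4, a stress response factor known to act on PMAIP1, fell from 617 to 150.01 and 117 FPKM (−2.04 and −2.42, adjusted p = 1.4e-05 and 5.9e-07). E2F1, a cell cycle factor, fell from 38.1 to 8.30 and 2.28 FPKM (−2.10 and −3.61), DDIT3, which encodes CHOP, at 100 nM from 94.1 to 41.2 FPKM (−1.17), and IRF4 at 1000 nM from 77.5 to 24.4 FPKM (−1.65, adjusted p = 1.6e-05). Relative to the median gene 6 fell and 2 rose at 100 nM, against 17% and 14.2% of all genes, and 5 fell and 2 rose at 1000 nM, against 24% and 24.9%; the 2 that rose, FOXO3 and STAT3 at both doses, are named after their values were seen. In XG1 3 of 13 fell at each dose, against 10% and 13.2% of all genes: ATF4 (174 to 85.7 and 79.1 FPKM, −1.05 and −1.13, adjusted p = 0.0042 and 0.0015) and DDIT3 (49.1 to 25.1 FPKM at both doses, −0.94 and −0.95) at both, with MYC (115 to 47.7 FPKM, −1.36) at 100 nM and E2F1 (11.2 to 5.66 FPKM, −0.88) at 1000 nM. With size factors applied, 14 were tested and both directions were called. At 100 nM ATF4 and DDIT3 fell and RELA and TP73 rose, and at 1000 nM ATF4, DDIT3 and E2F1 fell and RELA, TP73, GATA1 and STAT5A rose; those that rose are named after their values were seen. Whether these factors bear on the members was not tested.

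**Figure D4:**
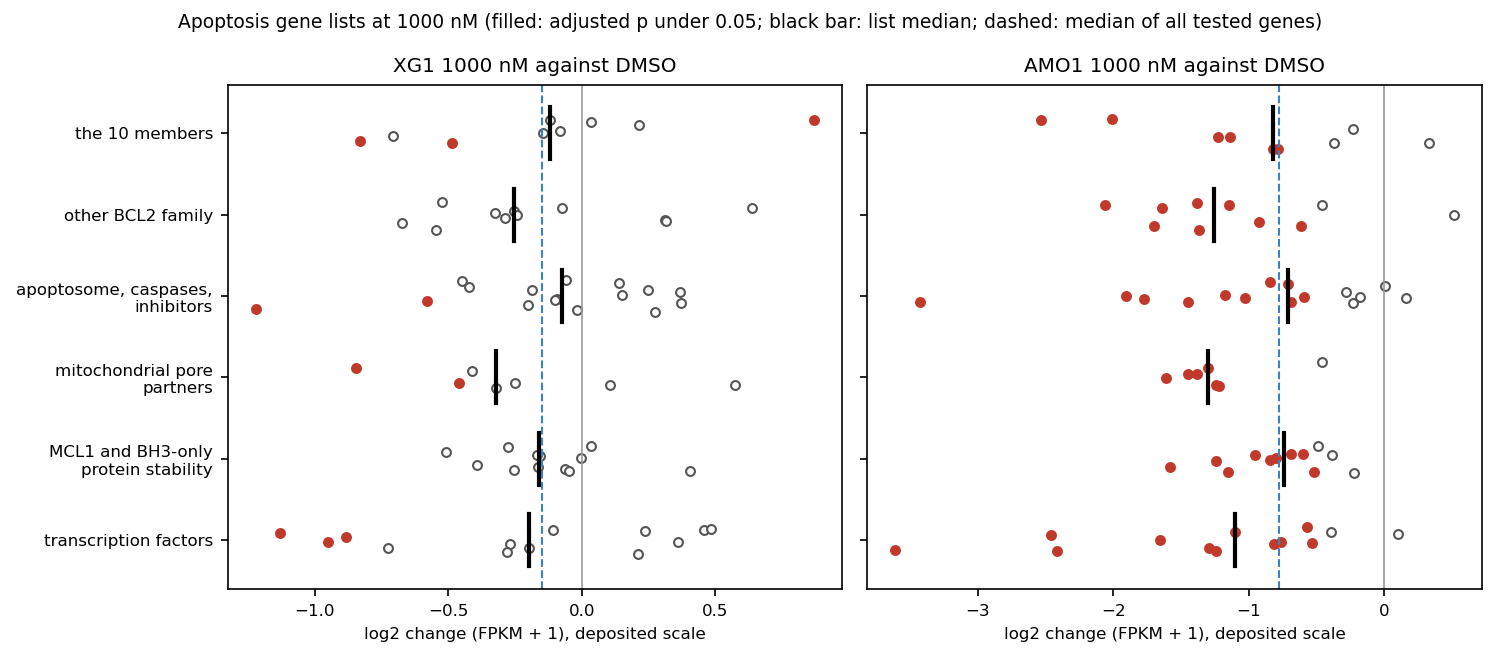
Log2 change at 1000 nM on the deposited scale for each tested gene of the 10 members and the 5 lists, in XG1 and AMO1; filled points were called, black bars are list medians and the dashed line is the median of all tested genes. In AMO1 the medians lie between −0.71 and −1.30 around the all-gene median of −0.77, and in XG1 all lie within −0.32 to −0.08.

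The genes most like the leading members were taken by Pearson's r over the 9 libraries of a line on the relative scale, as a description; the libraries share doses, so genes that respond to the inhibitor correlate. In AMO1, of 9049 protein-coding genes, those nearest to PMAIP1 were PSPH (r = 0.992), SLC3A2 (0.992) and TAF15 (0.991). PSPH, an enzyme of serine synthesis, went from 35.4 to 5.59 FPKM between DMSO and 1000 nM, and SLC3A2, a subunit of amino acid transporters, from 144 to 23.3. Those nearest to HRK were EXOSC9 (0.978), RHNO1 (0.973) and SMNDC1 (0.971). In XG1, of 10029 genes, LSM4 (0.971), CXXC5 (0.968) and DEPDC1B (0.966) were nearest to PMAIP1, and OSBPL7 (0.967), RGS2 (0.966) and ADIPOR2 (0.965) to BCL2L1.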

How the data were processed

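The submitters' processing notes name HISAT2, Cuffnorm and the build hg19, without versions. The authors deposited FPKM for 26249 genes and 92 spike-ins in each of 18 libraries, with no zeros. Read depth is unknown, so precision comes from the replicates. A gene was tested if 3 or more libraries of the fit held at least 1 FPKM, by limma 3.58.1 (R 4.3.3), with a mean-variance trend, on log2(FPKM + 1). Within a line the fit held its 9 libraries (XG1 11810 genes tested, AMO1 10503); line and response differences used all 18 (12792). P-values were Benjamini-Hochberg adjusted over all genes tested. The pseudocount makes changes of low genes too small. The script was tested on simulated data.

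The members and lists were chosen with earlier results of these data known. Named genes were all 10 members, at most 3 called genes of smallest adjusted p per list, dose and line, and the 3 genes most like each of the 2 leading members of a line; exceptions are said in the text. Alternatives were pseudocounts of 0.1 and 5 FPKM, no filter, the relative scale, a replicate block, all 18 libraries in 1 fit, and leaving out each library.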

Additional observations from a re-analysis of the deposited data

Results flagged for a closer look

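These members are listed because the response to YKL-5-124 differed between the lines by a test of the difference itself (limma, XG1 change minus AMO1 change, 18 libraries). At 100 nM the difference was 1.54 on the log2 scale for PMAIP1 and 0.99 for BBC3. At 1000 nM it was 1.86 for HRK, 1.70 for PMAIP1, 1.35 for BAX, 1.01 for BCL2L1 and 0.74 for BBC3. Of all genes tested 5.37% were called positive at 100 nM and 32.8% at 1000 nM, where the median was 0.55. Relative to the median gene, BAX (0.54, adjusted p = 0.16), BCL2L1 (0.69, adjusted p = 0.086) and BBC3 (−0.10, adjusted p = 0.73) were not called at 1000 nM, while HRK and PMAIP1 were. BCL2L1 did not pass the filter in AMO1, so its value largely repeats the XG1 change and is no measure of how the responses differ. The libraries labelled XG1 lack most plasma cell markers and carry erythroid ones, and the part of this in the differences was not tested.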

How the results depend on the processing

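Of 84 member changes, 81 kept their call (higher, lower or none) at a pseudocount of 0.1 FPKM, 82 at 5 FPKM and 79 with no filter. With the replicate block 81 did, and on the relative scale 64 did. A change called in neither setting counted as kept whatever its sign, such as BAK1 in AMO1 at 100 nM (−0.25 deposited, 0.18 relative). On the relative scale 7 changes with a call turned sign, each called on a single scale and none on both. Those were, in AMO1 at 1000 nM, MCL1 (0.75), BCL2 (0.13), BCL2L11 (0.56) and BAK1 (0.13), and, for the response difference at 1000 nM, MCL1 (−0.58), BCL2 (−0.70) and BBC3 (−0.10); division by size factors accounts for these by construction. With 1 library left out, 589 of 624 values stayed, 27 lost and 8 gained a call.

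The larger shifts in members called were as follows. In XG1 at 100 nM (0) the relative scale gave 1 and leaving out a library 0 to 2. In XG1 at 1000 nM (3) no filter gave 1 and leaving out a library 1 to 2. Between doses in AMO1 (1) a pseudocount of 5 FPKM, no filter and the replicate block each gave 0, and leaving out a library 0 to 4. Smaller shifts included those in AMO1 against DMSO. At 100 nM (4) a pseudocount of 0.1 FPKM, no filter and the replicate block each gave 3. Leaving out any library compared also gave 3 at that dose, and the relative scale gave 5. At 1000 nM (6) the relative scale gave 4.

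Of all genes, with no filter the calls went from 1474 to 674 (XG1, 100 nM), 1994 to 1153 (XG1, 1000 nM), 46 to 9 (XG1 between doses), 3386 to 1944 (AMO1, 100 nM), 2482 to 521 (AMO1 between doses) and 8292 to 15163 (lines in DMSO). The relative scale gave 115 between doses in XG1, 637 between doses in AMO1, and 1212 and 2188 for the response difference at 100 nM (797) and 1000 nM (4390). All 18 libraries in 1 fit gave 94 between doses in XG1. Leaving out 1 library gave 571 to 1876 (XG1, 100 nM), 1047 to 1564 (XG1, 1000 nM), 2 to 82 (XG1 between doses), 1812 to 2613 (AMO1, 100 nM), 519 to 3437 (AMO1 between doses) and 430 to 1136 (response difference, 100 nM). The cause of these shifts was not tested.

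Replicate numbers gave no clear pairing. The deviations of same-numbered libraries correlated at −0.04 to 0.16 in XG1 and −0.18 to 0.12 in AMO1. Those of differently numbered libraries correlated at −0.14 to 0.09 and −0.17 to 0.17. In XG1 2 of 9 same-numbered pairs were over 0.1, against 0 of 18 others, and in AMO1 1 of 9 against 5 of 18. Whether the numbers pair the XG1 libraries cannot be settled from these few pairs. With the replicate block, genes called were 1461 between doses in AMO1 and 513 for the response difference at 100 nM.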
